A study of Mus musculus with 14 samples.

Results

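Nuclear receptors are transcription factors that bind DNA and change the transcription of their target genes, many of them when a small lipid-soluble ligand is bound. The genes described are 41 listed nuclear receptor genes, of which 37 had a named probe set among the 19505 genes named on the array and were measured in mouse liver. They were chosen by gene symbol, and where a gene had several probe sets (Rora and Rorb) the one with the highest mean was taken. Nr1h2, Ppard, Nr2e3 and Esrra were not matched to a named probe set and are not analysed here.

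Hepatic gene expression was measured in 14 male C57BL/6N mice that all wore adjustable clothes around the trunk and were 10 weeks old. In the compression group (n = 7) the clothes were tightened, and in the no-compression group (n = 7) they were worn without being tightened. All livers were collected under isoflurane 8 hours after the load began, in the light period in which mice rest. RNA of each liver was read on 1 Clariom S array, on which short DNA probes are grouped into probe sets. The deposited values are log2 expression levels made with qFarms, which summarises the probes of a probe set by factor analysis and shrinks its value to near constancy when the probes fail to vary in common. For such a probe set a change can be neither seen nor denied. Levels of different probe sets cannot be compared directly, and the percentile of signal among the 22206 probe sets, given beside the level of each member, does not remove differences between probes. All p-values rest on the spread between these mice, which cannot be read for a near-constant probe set. The number of arrays limits the precision. In whole liver, fewer cells of a type and less RNA per cell cannot be told apart.

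Liver is a main site of nuclear receptor action. The constitutive androstane receptor (CAR, gene Nr1i3) and the pregnane X receptor (PXR, gene Nr1i2) sense foreign compounds and induce enzymes that clear them, PPARα (gene Ppara) senses fatty acids and induces their oxidation in fasting, and the liver X receptor Nr1h3 senses oxysterols. Many of these bind DNA as a pair with a retinoid X receptor (Rxra, Rxrb, Rxrg), on repeats of the hexamer AGGTCA. Other members act alone or in pairs with themselves, as the steroid receptors and Hnf4a do.

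Promoter sequence is shown for the members with the largest spread between mice, Nr1i3, Ppara and Esr1, which differed together in the arrays described further on, and for 1 of 2 windows of Nr5a2, the only window of these 4 genes that holds the hexamer. The windows are the 250 bases before the annotated transcript start in RefSeq on GRCm38.p6, each printed 5′ to 3′ on the strand of the gene. Capitals mark AGGTCA (the nuclear receptor hexamer), CACGTG (an E-box, the site that clock proteins such as Clock bind) and TATAAA (letters of the TATA box, a core promoter element). Both strands were searched, and this element on the opposite strand appears as TTTATA. The Nr1i3 window lies at chr1:171213720-171213969 (+), the Ppara window at chr15:85735526-85735775 (+), the 2 Esr1 windows at chr10:4611739-4611988 (+) and chr10:4709908-4710157 (+), and the Nr5a2 window shown at chr1:136960449-136960698 (-).
Nr1i3: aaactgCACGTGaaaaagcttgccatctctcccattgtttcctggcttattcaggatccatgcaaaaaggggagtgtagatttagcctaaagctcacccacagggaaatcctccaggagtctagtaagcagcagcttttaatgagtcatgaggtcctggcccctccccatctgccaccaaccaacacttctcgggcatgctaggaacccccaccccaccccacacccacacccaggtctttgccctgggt
Ppara: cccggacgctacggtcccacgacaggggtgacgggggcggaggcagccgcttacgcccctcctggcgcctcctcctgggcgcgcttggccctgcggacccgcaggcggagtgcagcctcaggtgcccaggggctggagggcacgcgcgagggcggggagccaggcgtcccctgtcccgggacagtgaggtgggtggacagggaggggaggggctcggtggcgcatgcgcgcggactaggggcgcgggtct
Esr1, window 1: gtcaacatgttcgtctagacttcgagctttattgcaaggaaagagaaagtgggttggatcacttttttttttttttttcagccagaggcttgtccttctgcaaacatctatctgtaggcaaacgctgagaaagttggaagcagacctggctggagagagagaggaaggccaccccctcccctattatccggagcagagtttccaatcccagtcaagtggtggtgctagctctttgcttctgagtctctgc
Esr1, window 2: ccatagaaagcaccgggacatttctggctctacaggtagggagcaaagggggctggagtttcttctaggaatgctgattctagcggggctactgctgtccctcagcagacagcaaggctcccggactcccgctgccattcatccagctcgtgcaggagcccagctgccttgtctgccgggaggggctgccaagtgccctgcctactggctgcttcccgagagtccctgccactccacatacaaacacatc
Nr5a2, window 1: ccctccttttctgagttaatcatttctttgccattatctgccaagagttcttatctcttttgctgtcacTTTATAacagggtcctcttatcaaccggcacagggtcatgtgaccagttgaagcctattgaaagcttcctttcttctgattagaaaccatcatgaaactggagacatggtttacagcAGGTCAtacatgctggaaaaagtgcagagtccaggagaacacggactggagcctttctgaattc

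The Nr1i3 window holds 1 E-box, 244 bases before the start, and no AGGTCA. The Nr5a2 window shown holds 1 AGGTCA, 64 bases before the start, and 1 TATA box, 181 bases before it, and the other Nr5a2 window, at chr1:136953631-136953880 (-), holds none of the capitalised motifs. None of the capitalised motifs is in the Ppara window, which is rich in G and C (76.4%, against 53.2% over all promoters), or in either Esr1 window. Of the 37 measured members 33 matched a promoter in the table, with 54 windows. AGGTCA is in 9 of these 54 windows (16.7%), of 8 genes, against 14% of all 32851 promoters, the E-box in 7.41% against 6.02%, and the TATA box in 13.0% against 12.4%. These shares lay close to those of all promoters. Longer motifs that contain AGGTCA overlap it: the direct repeats AGGTCANAGGTCA (bound by retinoid X receptor pairs with PPARs) and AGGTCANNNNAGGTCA (pairs with the thyroid hormone receptors and liver X receptors), and the extended site TCAAGGTCA (bound by Nr5a2 and the estrogen-related receptors). None of these, nor the HNF4 site CAAAGTCCA, is in a member's window, and they are in 0.0335%, 0.0152%, 0.387% and 0.384% of all promoters. These counts describe letters in short windows only.

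Most members had a signal above the median probe set. The median of their mean log2 levels was 7.64, against 6.51 over all probe sets, and 29 of 37 lay above the median, 17 above the 75th percentile and 7 above the 90th percentile. These 7 were Hnf4a, which drives much of the hepatocyte programme (mean log2 level 10.81, percentile 97.5), Nr1i3 (10.6, percentile 97), Ppara (10.14, percentile 95.7), Nr2f2 (10.04, percentile 95.3), Rxra (10.03, percentile 95.3), Nr1h3 (9.72, percentile 94) and Nr5a2, a regulator of bile acid synthesis (9.64, percentile 93.6). At the low end, 5 members lay below the 25th percentile: Nr0b1 (5.6, percentile 19.4), Esr2 (5.54, percentile 16.9), Hnf4g (5.47, percentile 14.2), Rorb (5.42, percentile 12.1) and Esrrb (5.29, percentile 7.66). A low signal on an array cannot be told apart from background without a measured background, which was not used here.

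By family, the sensors of foreign compounds and vitamin D all had a high signal, with Nr1i2 at 8.9 (percentile 88.9) and the vitamin D receptor Vdr at 8.45 (percentile 84.6). Among the lipid sensors Pparg, known for its part in fat cells, lay at 6.76 (percentile 56.2). The retinoid receptors ranged from 7.07 to 10.03 and held, beside Rxra, Rara (8.07, percentile 79.9), Rarg (7.77, percentile 75.4), Rarb (7.6, percentile 72.7), Rxrg (7.08, percentile 63.2) and Rxrb (7.07, percentile 62.8). The thyroid hormone receptors lay at 9.05 (Thrb, percentile 89.9) and 7.38 (Thra, percentile 68.6). Rora, an activator of clock genes, lay at 8.82 (percentile 88.2). The steroid and estrogen-related receptors ranged from 5.29 to 8.13, and held the mineralocorticoid receptor Nr3c2 (8.13, percentile 80.8), the estrogen receptor Esr1 (7.65, percentile 73.5), the glucocorticoid receptor Nr3c1 (7.59, percentile 72.5), Esrrg (6.61, percentile 52.4) and the progesterone receptor Pgr (6.17, percentile 40.4). The NR4 receptors, which are induced rapidly by stimuli, were Nr4a1 (6.74, percentile 55.8), Nr4a3 (5.8, percentile 27.5) and Nr4a2 (5.77, percentile 26.4). The remaining members were Nr6a1 (7.98, percentile 78.7), Nr2c1 (7.97, percentile 78.5), Nr2c2 (7.79, percentile 75.8), Nr2f6 (7.64, percentile 73.4), Nr2f1 (6.7, percentile 54.8) and Nr5a1 (6.56, percentile 51.2).

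The values between mice were almost constant for most members. There were 5 of 37 members (13.5%) with an SD above 0.01 over the 14 arrays, against 1238 of 22206 probe sets (5.58%). They were Nr1i3 (SD 0.46), Ppara (0.216), Esr1 (0.139), Nr2f2 (0.0728) and Nr5a2 (0.0254), and are called members with spread. The other 32 had an SD between 1.04e-05 and 3.22e-05. Just inside the limit lay Nr5a2 and Nr2f2, and just outside it Hnf4a (3.22e-05) and Esr2 (1.04e-05). With a limit of 0.05 there were 4 members with spread, without Nr5a2, and after quantile normalization of the deposited values 8 members passed 0.01, so the count depends on the limit and the scaling. Spread was more frequent at high signal, at 19.7% of all probe sets above the 75th percentile and 35.5% above the 90th. Among members 4 of 17 above the 75th percentile and 4 of 7 above the 90th had spread, and in the signal range of the 5 members with spread 14.7% of all probe sets did. Hnf4a, Rxra and Nr1h3 had a high signal without spread, so a change of these members cannot be read from these data, nor one of the glucocorticoid, thyroid hormone, retinoic acid and pregnane X receptors.

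**Figure D1:**
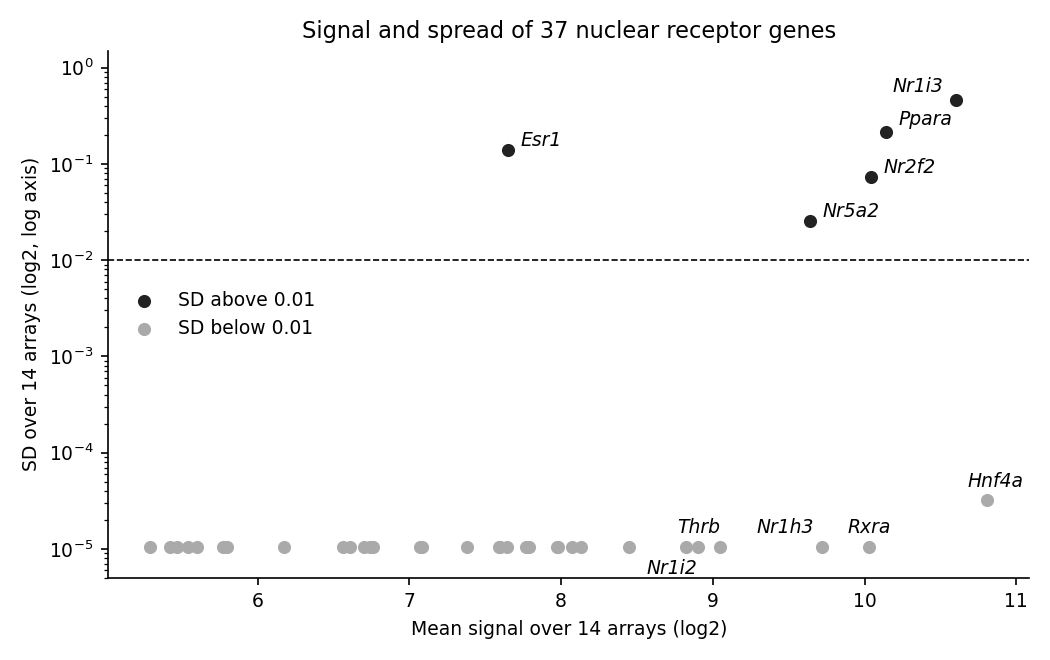
Mean log2 level (x axis) and SD over 14 arrays (y axis, log scale) of the 37 measured nuclear receptors, with the limit of 0.01 marked. Nr1i3, Ppara, Esr1, Nr2f2 and Nr5a2 lie above the limit, and the other 32 members lie at or below an SD of 3.22e-05 at every level of signal.

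Before the group comparison, 3 arrays of the no-compression group have to be named. In a principal component analysis of all probe sets with spread, where component 1 took 57.1% of the variance, the compression replicates lay between -4.35 and 2.25, and among the no-compression replicates, replicates 6, 3 and 7 lay at 16.7, 9.57 and 9.45 and the other 4 between -6.73 and -3.34. Group differences of the members and of the genes and lists named are therefore also given without these 3 arrays, an alternative chosen after seeing the data. Summed hepatocyte markers lay at 15.72 to 15.74 in the compression group and 15.69 to 15.74 in the no-compression group on the log2 scale (15.69 to 15.71 in the 3 arrays). All 6 measured hepatocyte markers lay at or above percentile 99.8, and only 2 had spread. Both were lower in the 3 arrays than in the other 11, Cyp2e1 at 12.84 and 13.03 and Apoa1 at 13.05 and 13.11. The other hepatocyte markers were near-constant, so their sum can show little change. Kupffer cell markers (6 of 6 measured, 3 with spread) summed to 10.94 to 11.07 in the compression group and 10.94 to 11.19 in the no-compression group, with 10.99 to 11.19 in the 3 arrays that stand apart. Leukocyte markers (6 of 6 measured, 1 with spread) summed to 8.78 to 8.8 in the compression group and 8.78 to 8.87 in the no-compression group, with 8.82 to 8.87 in these 3 arrays, and no cholangiocyte marker had spread. Endothelial markers summed to 11.06 to 11.18 in the compression group and 11.07 to 11.16 in the no-compression group, and stellate cell markers to 11.27 to 11.41 and 11.28 to 11.34 in the same groups. The Kupffer cell marker Marco averaged 7.77 in the 3 arrays and 7.21 in the other 11. The other Kupffer cell markers with spread differed less, Cd5l at 9.71 and 9.54 and Vsig4 at 8.68 and 8.66. Lyve1 (8.52 and 8.14) was the only endothelial marker with spread, and S100a8 (6.03 and 5.58, percentile 22.5) the only leukocyte marker with spread. The part of other cells in the results that follow was not tested.

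Nr1i3 had the largest difference between the groups among the 5 members with spread, and its lowest values came from the 3 arrays named above. Its log2 level was 10.54 at the lowest, 10.91 at the median and 10.98 at the highest in the compression group, against 9.63, 10.73 and 10.85 in the no-compression group. In the compression group replicate 4 lay lowest, at 10.54, and the others lay at 10.79 to 10.98. In the no-compression group replicates 6, 3 and 7 lay at 9.63, 9.76 and 9.97, below all other arrays. The groups overlapped, with 4 compression replicates above every no-compression replicate. Nr1i3 averaged 10.85 ± 0.158 in the compression group and 10.35 ± 0.536 in the no-compression group (SD, n = 7 each), a log2 fold change of 0.50 (1.41-fold, 95% interval 0.05 to 0.95, SE 0.207). This difference did not pass limma after Benjamini-Hochberg adjustment over all probe sets (adjusted p = 0.943), and the exact two-sided permutation test of Nr1i3 alone over the 14 arrays gave p = 0.0385. Its size was at percentile 98.3 of the probe sets with spread, and its SD at percentile 92.9. Without no-compression replicates 3, 6 and 7 the log2 fold change of Nr1i3 was 0.08 (95% interval -0.10 to 0.26). These arrays were picked from the data and hold the lowest Nr1i3 values, so leaving them out itself brings the groups closer. The value and its interval are a description and no test.

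Ppara had a smaller difference of the same sign, which did not pass limma either. Its log2 level was 10.16 at the lowest, 10.28 at the median and 10.33 at the highest in the compression group, against 9.52, 10.07 and 10.3 in the no-compression group. No-compression replicates 6, 7 and 3 were the lowest arrays, at 9.52, 9.95 and 9.96, and the groups overlapped, with 2 compression replicates above every no-compression replicate. The mean was 10.26 ± 0.0696 in the compression group and 10.03 ± 0.256 in the no-compression group (SD, n = 7 each), a log2 fold change of 0.23 (1.17-fold, 95% interval 0.02 to 0.44, limma adjusted p = 0.943, exact two-sided permutation p = 0.0216). Without the 3 arrays, the lowest for Ppara, the log2 fold change was 0.07 (95% interval -0.04 to 0.18), again a description and no test.

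Esr1, the estrogen receptor α, had a difference of the opposite sign that did not pass the test. Its log2 level was 7.5 at the lowest, 7.6 at the median and 7.72 at the highest in the compression group, against 7.52, 7.66 and 8.0 in the no-compression group. The 3 highest arrays were no-compression replicates 6, 3 and 7, at 8.0, 7.81 and 7.79, and the groups overlapped. Esr1 averaged 7.59 ± 0.0717 in the compression group and 7.71 ± 0.168 in the no-compression group (SD, n = 7 each), a log2 fold change of -0.12 (95% interval -0.27 to 0.03, limma adjusted p = 0.943, exact two-sided permutation p = 0.103). The same difference was 0.00 without these arrays (95% interval -0.09 to 0.09), which is likewise a description and no test.

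Nr2f2 and Nr5a2 differed by little. Nr2f2, an orphan receptor of vessel and stromal development, had log2 levels of 9.998, 10.013 and 10.155 (lowest, median, highest) in the compression group, against 9.931, 9.995 and 10.163 in the no-compression group. These ranges overlapped almost wholly, and the log2 fold change was 0.02 (95% interval -0.06 to 0.11, limma adjusted p = 0.986, exact two-sided permutation p = 0.565). Nr5a2 had log2 levels of 9.59, 9.63 and 9.66 in the compression group, against 9.61, 9.64 and 9.68 in the no-compression group. No-compression replicates 7, 3 and 6 were the highest arrays, the groups overlapped, and Nr5a2 had a log2 fold change of -0.02 (95% interval -0.05 to 0.01, limma adjusted p = 0.944, exact two-sided permutation p = 0.16). Without the 3 arrays the log2 fold changes were -0.019 for Nr2f2 and -0.003 for Nr5a2.

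**Figure D2:**
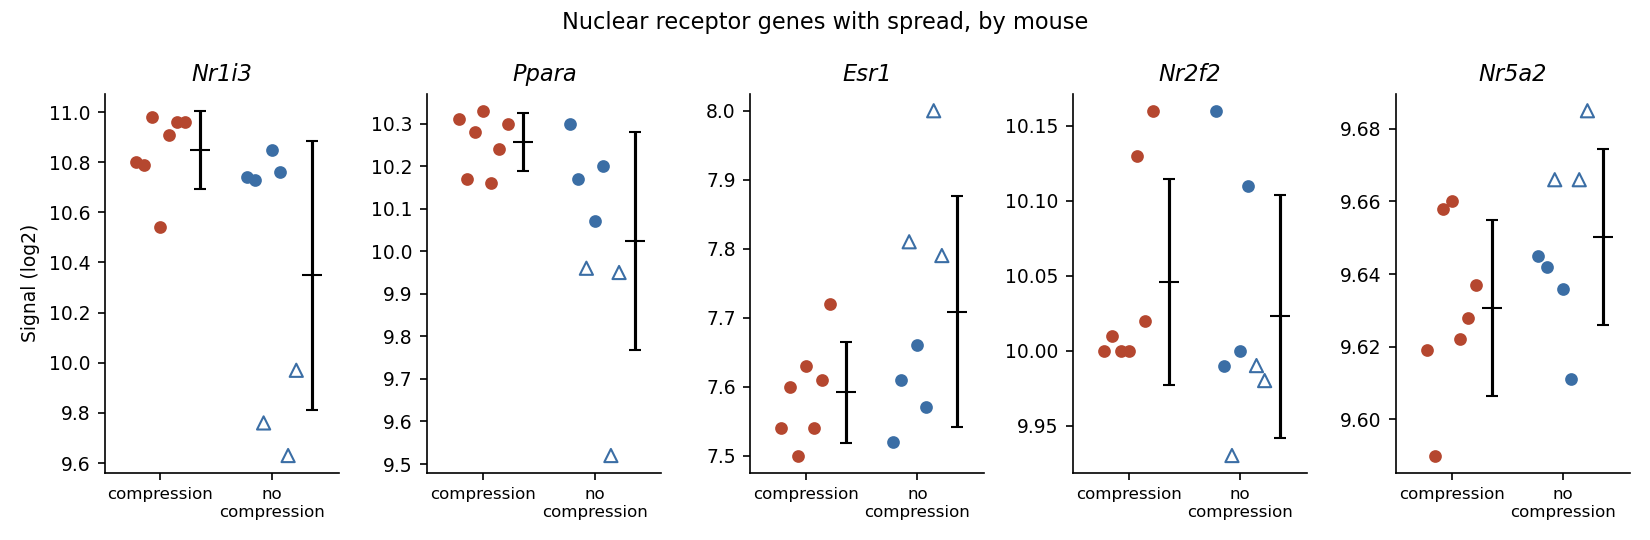
Log2 level of the 5 nuclear receptors with spread in each mouse, compression left and no-compression right, with bars for the mean ± SD (n = 7 each) and triangles for no-compression replicates 3, 6 and 7. The scale differs between panels. These 3 arrays are the lowest for Nr1i3 (9.63 to 9.97) and Ppara, and the highest for Esr1 and Nr5a2.

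Across the measured members 0 of 37 passed limma at an adjusted p of 0.05, as did 0% of all 22206 probe sets. The lowest adjusted p was 0.943 among members and 0.3 among all probe sets. At an unadjusted limma p below 0.05 there were 3 members, all higher (8.11%), against 1152 probe sets in either direction (5.19%), 2.73% higher and 2.45% lower. Only 92 of the 1152 had spread, which is 7.43% of the probe sets with spread. The 3 members were Nr1i3, Ppara and Esrrb, and Esrrb has no spread (no group difference of a member without spread exceeded 1.32e-05), so only Nr1i3 and Ppara carry a difference that can be read. By rank products, which the study's methods name, with a false discovery rate (FDR) below 0.01, Nr1i3 (FDR 8.92e-06) and Ppara (FDR 0.000275) were called higher and Esr1 (FDR 0.00636) lower, against 277 probe sets called higher (1.25%), 261 lower (1.18%) and 530 in either direction (2.39%). Some probe sets were called in both directions, so the higher and lower counts together exceed the last count. Rank products called 518 of the 1238 probe sets with spread (41.8%), so 3 of 5 members with spread stand beside a high background. Groups without overlap were found in 17 probe sets (0.0766%), none of them with spread, and in none of the 5 members with spread.

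The 5 members with spread split into 3 higher and 2 lower with compression, with a median log2 fold change of 0.02. The 1238 probe sets with spread split into 598 higher (48.3%) and 640 lower, with a median log2 fold change of -0.0. Their median absolute log2 fold change was 0.08. Nr1i3 and Ppara lay beyond that size, Esr1 also, and Nr2f2 and Nr5a2 below it.

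**Figure D3:**
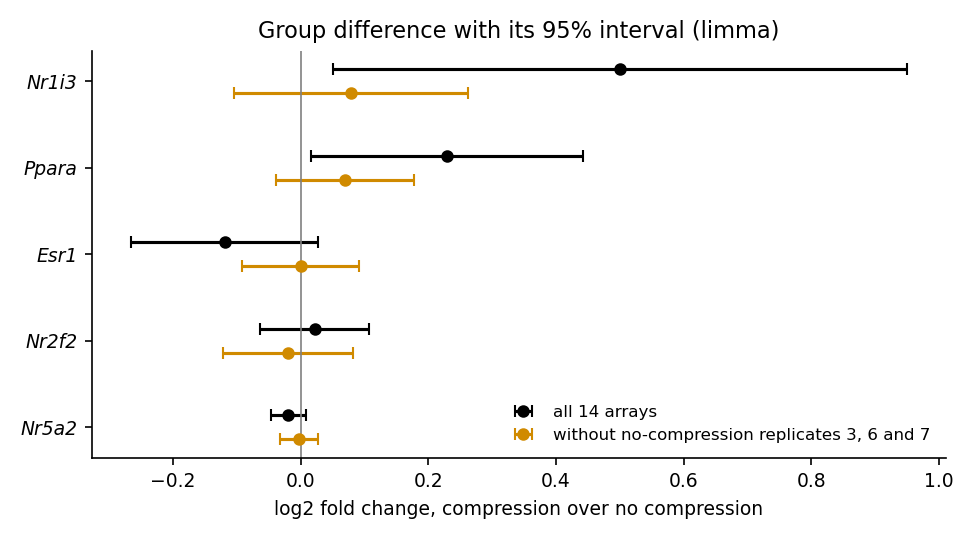
Log2 fold change, compression minus no-compression, of the 5 members with spread with the 95% interval of limma, over all 14 arrays and without no-compression replicates 3, 6 and 7. Nr1i3 lies at 0.50 with all arrays and at 0.08 without them, and Esr1 at -0.12 and at 0.00. The 3 arrays were picked from the data, so the intervals without them are a description.

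The members with spread were set beside Nr1i3 over mice. Since no-compression replicates 3, 6 and 7 form a separate cluster on Nr1i3, correlations were computed over the other 11 arrays, for 4 pairs, and within the compression group. Over these 11 arrays Nr1i3 gave r = -0.20 with Ppara (permutation p = 0.554, adjusted 0.973; rho = -0.19, permutation p = 0.577, adjusted 0.775). With Esr1 it was r = 0.01 (permutation p = 0.981, adjusted 0.981; rho = -0.10, permutation p = 0.775, adjusted 0.775), with Nr2f2 r = 0.20 (permutation p = 0.569, adjusted 0.973; rho = 0.25, permutation p = 0.468, adjusted 0.775) and with Nr5a2 r = -0.12 (permutation p = 0.729, adjusted 0.973; rho = -0.11, permutation p = 0.754, adjusted 0.775). No pair passed. Without the 2 arrays farthest from the median of Nr1i3 (n = 9), r was 0.03 with Ppara, 0.52 with Esr1, 0.18 with Nr2f2 and 0.11 with Nr5a2. Over the 11 arrays with the mean of each group taken out, r was -0.38 with Ppara, 0.01 with Esr1, 0.25 with Nr2f2 and -0.1 with Nr5a2. Within the compression group (n = 7) r was -0.34, -0.10, 0.45 and -0.11 in the same order of genes, with exact permutation p of 0.469, 0.807, 0.323 and 0.813 (adjusted 0.813 for each), and rho was -0.21, -0.21, 0.39 and 0.25 (exact permutation p of 0.662, 0.662, 0.396 and 0.595, adjusted 0.662 for each). The low Nr1i3 and Ppara and high Esr1 of the 3 arrays can be set beside the rest of their group. In the no-compression group the mean of replicates 3, 6 and 7 was 9.79 for Nr1i3 against 10.77 ± 0.058 in the other 4, 9.81 for Ppara against 10.19 ± 0.094, and 7.87 for Esr1 against 7.59 ± 0.057. These 3 arrays were picked from the data, so this is a description and no test was made.

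The genes whose pattern was most like that of Nr1i3 were the 5 of 1072 named probe sets with spread that had the highest Pearson r over 14 arrays: Cyp2c37 and Cyp2c54 (cytochromes P450 of a family with CAR targets), Cyp2d22 (another cytochrome P450), Dpys (an enzyme of pyrimidine breakdown) and Nxpe2. In each, the values of no-compression replicates 3, 6 and 7 lay below those of the other 11 arrays, at 10.22 to 10.5 against 10.997 to 11.47 for Cyp2c37 and 10.71 to 10.95 against 11.29 to 11.4 for Cyp2d22. Over the other 11 arrays the likeness to Nr1i3 varied, with r = 0.79 for Cyp2c37, 0.60 for Cyp2c54, 0.47 for Nxpe2, 0.46 for Dpys and -0.25 for Cyp2d22. Since these genes were chosen by the same measure, no test was made. Without the 2 arrays farthest from the median of Nr1i3 (n = 9) r was 0.39 for Cyp2c37, 0.19 for Cyp2c54, -0.22 for Nxpe2, -0.55 for Dpys and -0.79 for Cyp2d22. The log2 fold changes of these 5 genes were 0.15 to 0.50 with all arrays (limma adjusted p = 0.943 for each) and -0.13 to 0.01 without the 3 arrays.

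**Figure D4:**
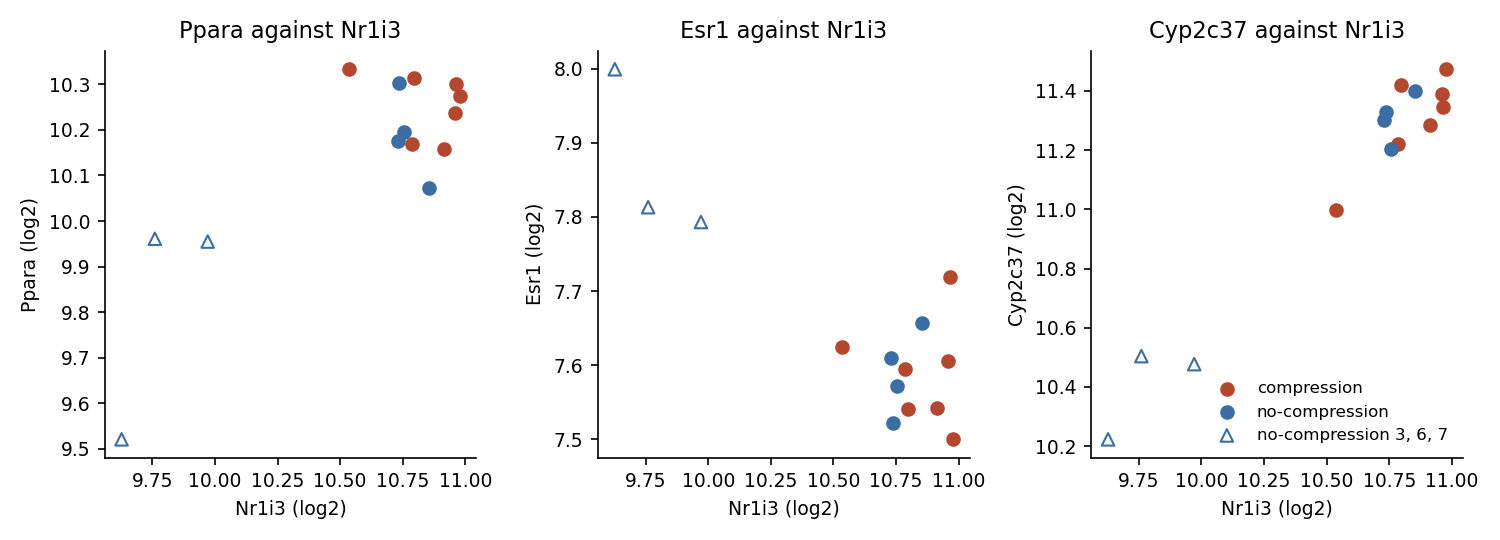
Log2 level of Ppara, Esr1 and Cyp2c37 (y axes) against that of Nr1i3 (x axes), 1 point per array, with compression in red, no-compression in blue and triangles for no-compression replicates 3, 6 and 7. The triangles lie apart from the other 11 arrays, at a Nr1i3 level of 9.63 to 9.97 against 10.54 to 10.98, and among those 11 arrays r with Nr1i3 is -0.20 for Ppara, 0.01 for Esr1 and 0.79 for Cyp2c37.

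The known targets of the receptors were counted in lists drawn from knowledge of the pathways, with earlier results of these data known. The direction of a list is therefore no independent evidence. Higher and lower counts cover the genes with spread alone, and no gene of any list passed limma (lowest adjusted p of 0.943 or above in each list). Of all probe sets with spread 48.3% were higher, which is the share to read each list beside. Of the 15 listed CAR targets 12 were measured and 10 had spread, 7 higher and 3 lower, with a median log2 fold change of 0.09, and 0.05 without the 3 arrays. Cyp2c37 and Cyp2c54 of this list were picked above as most like Nr1i3, so the count is not separate from Nr1i3. Cyp2c37 averaged 11.3 ± 0.159 in the compression group and 10.92 ± 0.496 in the no-compression group (SD, n = 7 each), Cyp2c50 11.91 ± 0.148 and 11.56 ± 0.515, and Cyp2c54 11.32 ± 0.166 and 10.94 ± 0.584. Without the 3 arrays the differences of these 3 genes were -0.00, -0.03 and -0.04. Cyp2b10, the classical CAR target, had a log2 fold change of -0.20 (SE 0.27), which turned to 0.24 without the 3 arrays. It averaged 8.29 in the 3 arrays and 7.4 in the other 11, the opposite order to that of Nr1i3. Cyp2b9 (8.69 and 8.13), Cyp2c55 (7.78 and 7.34) and Gstm3 (11.69 and 11.35) were also higher in the 3 arrays. The other CAR targets with spread were lower in them. Cyp2b9 had a log2 fold change of 0.45 (SE 0.402), and 0.95 without the 3 arrays.

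The 12 listed PPARα targets had 10 measured and 8 with spread, all 8 with a higher mean (median log2 fold change 0.35), and 0.12 without the 3 arrays (7 higher and 1 lower). Vnn1 averaged 7.82 ± 0.269 in the compression group and 7.31 ± 0.427 in the no-compression group (SD, n = 7 each), and the fatty acid hydroxylase Cyp4a10 11.58 ± 0.231 and 11.16 ± 0.534. The log2 fold changes were 0.50 for Vnn1, 0.42 for Cyp4a10, 0.45 for its relative Cyp4a14, 0.41 for Angptl4, an inhibitor of lipoprotein lipase, and 0.23 for Cpt1a, the rate-limiting enzyme of mitochondrial fatty acid oxidation. Without the 3 arrays they were 0.18 for Vnn1, 0.15 for Cyp4a10, 0.30 for Cyp4a14, 0.03 for Angptl4 and 0.15 for Cpt1a. Those of Angptl4 and of Acot1 (0.28, and 0.05 without the 3 arrays) were thus mostly lost. Plin2 had 0.15, and 0.10 without them, and Ehhadh 0.02, and -0.01 without them. By rank products, which called 41.8% of all probe sets with spread, 7 of the 10 measured were called higher and none lower. Earlier results of these data were known when this list was drawn, so its direction is no independent evidence, and none of these genes passed limma.

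The remaining lists had smaller medians or fewer genes with spread. PXR targets (6 of 7 measured, 4 with spread) had 2 higher and 2 lower (median -0.03), and 3 higher and 1 lower without the 3 arrays (median 0.02). LXR targets (8 of 9 measured, 6 with spread) had 2 higher and 4 lower (-0.04), and 4 higher and 2 lower without them (0.01). Glucocorticoid receptor targets (9 of 9 measured, 7 with spread) had 3 higher and 4 lower (-0.01), and 5 higher and 2 lower without them (0.01). The sign of these 3 medians thus turned with the 3 arrays. Thyroid hormone receptor targets (5 of 5, 5 with spread) had 3 higher and 2 lower (median 0.10), and 1 higher and 4 lower without the 3 arrays (median -0.04). The HNF4A targets (7 of 8, 2 with spread) had medians of 0.21 with all arrays and -0.07 without the 3, and the Nr5a2 targets (4 of 4, 3 with spread) 0.15 and 0.10. Among Nr5a2 targets the bile acid enzyme Cyp8b1 averaged 9.67 ± 0.427 in the compression group and 8.6 ± 1.23 in the no-compression group (SD, n = 7 each, log2 fold change 1.07, SE 0.484, and 0.39 without the 3 arrays), with 7.69 in the 3 arrays and 9.53 in the other 11. Retinoic acid receptor targets (4 of 5, 2 with spread), ROR targets (4 of 4, 1 with spread) and estrogen receptor partners (4 of 4, 1 with spread) had medians of -0.01, -0.05 and -0.08, and -0.14, -0.03 and -0.02 without the 3 arrays. Rarb and Pgr stand in these lists and are members too.

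Receptors outside the 41 members were also counted. Of 8 listed 6 were measured and 3 had spread: the bile acid receptor Nr1h4 (log2 fold change 0.23, SE 0.0932, and 0.10 without the 3 arrays), its target Nr0b2 (-0.12, and -0.25 without them) and the clock repressor Nr1d1 (-0.08, and -0.09 without them). Nr1h4 averaged 9.39 in the 3 arrays and 9.75 in the other 11, lower in the 3 arrays like Nr1i3 and Ppara. Of 11 coregulators 9 were measured and 1 had spread, Ppargc1a, a partner of PPARα, with a log2 fold change of 0.01 (SE 0.13), and 0.12 without the 3 arrays.

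**Figure D5:**
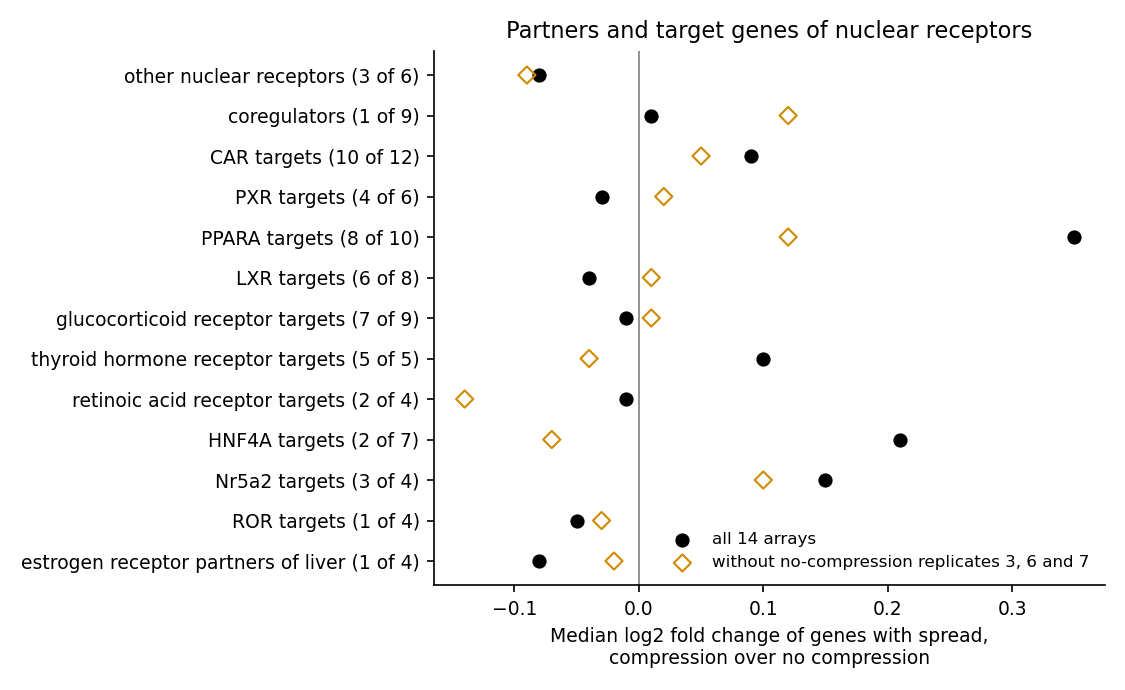
Median log2 fold change, compression minus no-compression, of the genes with spread in each list of receptor targets and partners, over all 14 arrays (black) and without no-compression replicates 3, 6 and 7. Numbers in parentheses give the genes with spread of those measured. The PPARα targets (PPARA in the plot) have the largest median of these lists over all arrays, 0.35, and 0.12 without the 3 arrays.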

How the data were processed

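The deposited values are log2 expression levels that the authors made from the array scans with qFarms in R 3.4.4, a version named in the submitters' processing notes, by quantile normalization and a factor analysis of the probes of each probe set. They were used unchanged. Of 29129 rows 6923 were controls and were left out, leaving 22206 probe sets, of which 19572 had 1 gene in the platform annotation, 0 several and 2634 none. No scan date or other batch was in the files used, and no pair of arrays was identical. Groups came from the sample labels.

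The group comparison used lmFit and eBayes of limma 3.58.1 (R 4.3.3), with p-values adjusted by Benjamini-Hochberg across all 22206 probe sets at a limit of 0.05. Single genes were tested with a two-sided exact permutation test over the 3432 arrangements of the 14 arrays. Correlations used 100000 permutations over 11 arrays and exact enumeration within the compression group. The design foresaw them over 14 arrays, which is not given because 3 arrays form a separate cluster. Rank products (49 random pairings, FDR 0.01) were recoded (Python 3.11.15, pandas 2.3.3, scipy 1.17.1, numpy 2.4.6), and the RankProd package was not run. Figures were drawn with matplotlib 3.10.9. The limma script was tested on simulated data, with changes planted in probe sets drawn from all, most of them near-constant. This checks the code and does not show the power for members with spread. The members, the lists and the limit of spread of 0.01 were chosen with earlier results of these data known. The text names all measured members and the 5 genes most like Nr1i3 by Pearson r over 14 arrays, and the genes of the lists given with values were picked after their values were seen. Alternatives were another normalization, a filter on dim probe sets, other limits of spread, other settings of limma, rank products, the replicate number as a block, the mean over probe sets, and leaving out each array in turn. Promoter sequences are from RefSeq on GRCm38.p6.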

Additional observations from a re-analysis of the deposited data

How the results depend on the processing

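No probe set and no member passed limma under any of the other limma settings. By rank products 530 probe sets and 3 members were called, against 0 by limma, among them Nr1i3 at a log2 fold change of 0.50, Ppara at 0.23 and Esr1 at -0.12. The number of limma calls at an unadjusted p below 0.05 was 1152, and 172 after quantile normalization, 112 after median centring and 702 with robust eBayes. Over 22 limma settings the adjusted p ran from 0.36 to 0.997 for Nr1i3 and Ppara, 0.36 to 0.999 for Esr1 and Nr5a2, and 0.582 to 1.0 for Nr2f2.

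After quantile normalization of the deposited values 8 members had an SD above 0.01, against 5, and 4 were lower, against 2. With a limit of 0.05 only 1 member with spread was lower and the median log2 fold change of the members with spread was 0.13. Without no-compression replicates 3, 6 and 7, a choice made after seeing the data, the difference of Esr1 was 0.00, and that of Nr2f2 turned to -0.019. The cause was not tested.

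Leaving out each array in turn, the log2 fold change ranged from 0.38 to 0.58 for Nr1i3, 0.15 to 0.28 for Ppara, -0.15 to -0.07 for Esr1, 0.004 to 0.045 for Nr2f2 and -0.026 to -0.013 for Nr5a2. The correlation with Nr1i3 ranged from -0.34 to 0.14 for Ppara, -0.34 to 0.24 for Esr1, 0.02 to 0.36 for Nr2f2 and -0.34 to 0.32 for Nr5a2. Ppara and Nr5a2 turned positive without compression replicate 4, and Esr1 turned negative without compression replicates 1, 6 or 7 or no-compression replicates 1, 4 or 5. With the replicate number as a block the log2 fold change of Nr1i3 was 0.50 (limma adjusted p = 0.892). The labels do not say whether equal numbers pair the samples. The correlation between the same numbers in the 2 groups ran from -0.49 to 0.34, and 1 of 7 compression arrays was most like its own number. These few values cannot settle whether equal numbers share a handling step.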
